A study of Gallus gallus with 12 samples.

Results

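The cells described here are barcodes of the E16 chick retina that carried RNA of both PRR35 and ASIC4, together with RNA of a ganglion cell gene. A barcode was taken as double-positive when it held at least 1 UMI of PRR35, at least 1 UMI of ASIC4 and at least 1 UMI of RBPMS2, NEFM or NEFL. A UMI (unique molecular identifier) stands for 1 captured transcript. By this rule 327 barcodes were double-positive, of 8613 E16 barcodes with a ganglion cell gene, 9159 E16 barcodes and 95805 barcodes in all 12 libraries of the series. The remaining 8286 E16 barcodes with a ganglion cell gene served as the comparison and are called the other ganglion-marker barcodes.

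The series is a single-cell atlas of the chicken retina made with droplet-based 3′ libraries. At E16, cells enriched for retinal ganglion cells with an antibody to Thy-1 gave 2 libraries of dorsal retina and 2 of ventral retina. Whole retina without enrichment gave 4 libraries at E18 and 4 at E12. All cells came from embryos of fertilized eggs and were dissociated with papain, and the labels gave no genotype or treatment. Whether replicate libraries stem from different embryos was not labelled, so the spread that the p-values below measure may be technical. Between double-positive and other barcodes it is the spread over libraries of the difference within a library. Between dorsal and ventral members it is the spread of the library values. In both cases edgeR shares the estimate of spread across genes. Very small p-values, and the SEs from the same fits, thus do not measure a gene's own spread over its few libraries. The stage of the E16 libraries was taken from their titles and stage fields, although their descriptions named E18. Each library held 1 region, so that region and library preparation cannot be told apart.

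Retinal ganglion cells are the neurons whose axons form the optic nerve, and they fall into many types that differ in dendrites, targets and responses to light. Their types are usually told apart by combinations of transcription factors, adhesion molecules, channels and neuropeptides. ASIC4 belongs to the acid-sensing ion channel family, whose other members open on a fall in extracellular pH. PRR35 is named for its proline-rich sequence. BHLHE22 is a basic helix-loop-helix transcription factor that is also used by amacrine and bipolar interneurons in the mouse retina.

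The members were chosen by their own PRR35, ASIC4, RBPMS2, NEFM and NEFL counts, and the selection leaned on low counts. PRR35 was counted once in 83 of the 327 double-positive barcodes and ASIC4 once in 149, with a single UMI of each in 49. The highest counts in a barcode were 12 for PRR35 and 9 for ASIC4. Just outside the rule lay 805 ganglion-marker barcodes with PRR35 and no ASIC4, 587 with ASIC4 and no PRR35, and 9 barcodes that held both genes and no ganglion cell gene. A single UMI of the 3 ganglion cell genes let 8 members in.

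The levels that chose the members are a description and carry no test. PRR35 stood at 1159 and 962 CPM (the gene's UMIs scaled to a common total of the summed barcodes) in dorsal and at 791 and 790 CPM in ventral double-positive barcodes, against 53.5 to 72.2 CPM in the other ganglion-marker barcodes. ASIC4 stood at 935 and 624 CPM in dorsal and 554 and 557 CPM in ventral double-positive barcodes, against 24.4 to 32.0 CPM in the others. The required UMI of each gene weighs more in CPM in shallow barcodes. Member medians were 1802 and 2748 UMIs in dorsal and 4270 and 4254 UMIs in ventral libraries. The median PRR35 count was 2 in both dorsal and 3 in both ventral libraries, so no regional difference is read from these levels. RBPMS2, an RNA-binding protein of ganglion cells, averaged 1232 ± 25.3 CPM in double-positive and 1317 ± 144 CPM in other barcodes (SD, n = 4 libraries). The neurofilament genes that share the gate were higher, at 305 ± 82.0 against 210 ± 17.5 CPM for NEFM and 1403 ± 313 against 831 ± 36.8 CPM for NEFL.

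Among E16 ganglion-marker barcodes, detection of the pair was tied, which describes the genes of the rule and carries no test. ASIC4 was found in 43.9% and 34.8% of PRR35-positive barcodes of the dorsal libraries, against 5.05% and 5.79% of PRR35-negative ones. In the ventral libraries the shares were 25.2% and 28.2%, against 8.78% and 8.48%. The product of the separate shares gives pairs in 0.841% and 1.00% of dorsal and 1.51% and 1.62% of ventral barcodes. Found were 4.21% and 3.86% in dorsal and 3.45% and 4.04% in ventral libraries. At E18 the tie was weaker, with ASIC4 in 31.4%, 23.0%, 26.7% and 17.9% of PRR35-positive barcodes of replicates 1 to 4. The shares in PRR35-negative ones were 18.1%, 17.1%, 17.15% and 18.3%. Free RNA gives UMIs in cells that do not express a gene. Amacrine-marker barcodes without a ganglion cell gene held the genes as well at E16, with PRR35 in 6.50% and ASIC4 in 5.42% of 369 barcodes, against 13.1% and 10.6% of ganglion-marker barcodes. Both genes were found together in 7 of these 369 barcodes (1.90%, 95% Wilson interval 0.922% to 3.86%, median 2048 UMIs), against 3.80% of all ganglion-marker barcodes (3.41% to 4.22%, median 3666 UMIs). The depths of these sets differed, and whether amacrine cells express the genes was not tested, so the share there is no measure of free RNA. At E18, where photoreceptors were sampled, 0 of 3612 photoreceptor-marker barcodes held the pair, which allows a share of up to 0.0831%. ASIC4 alone was found in 13.7% of those barcodes (median 1197 UMIs), a share not below that in E16 ganglion-marker barcodes, and PRR35 in 0.277%, so that only 10 of them could hold the pair. Amacrine-marker barcodes of E18 without a ganglion cell gene held the pair in 1.99% of 6539, beside 1.94% of E18 ganglion-marker barcodes. Intervals and limits of this kind cover counting error only.

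Depth set the libraries apart. The dorsal libraries held 955 and 1357 barcodes with medians of 1670 and 1872 UMIs, and the ventral ones 3585 and 3262 barcodes with medians of 4161 and 4166 UMIs. Within a library, members and others were of like depth, except in dorsal replicate 2 (medians of 2748 against 1953 UMIs). Members ranged from 778 to 12182 UMIs. The 6 pairs of E16 libraries shared between 1 and 28 barcode sequences, and none of the shared ones was a member. A doublet score marked 13 members (3.98%), against 165 of the other barcodes (1.99%), and marked barcodes were kept unless said otherwise.

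The cell type label was checked against markers of 8 retinal cell classes. All 15 ganglion cell markers were detected, with a summed level of 11450 to 13100 CPM in double-positive barcodes, against 10160 to 11200 CPM in the others. They include RBPMS2, NEFM and NEFL, by which the barcodes of both sets were chosen, and THY1, the target of the enrichment. Their detection and sum are therefore no separate check of the label. POU4F1, a POU-domain factor of ganglion cells, averaged 1483 ± 276 CPM in double-positive barcodes and 1018 ± 129 CPM in the others (log2 difference 0.48 ± 0.055, SE). POU4F2 averaged 356 ± 86.5 CPM against 646 ± 188 CPM (-0.83 ± 0.082). The vesicular glutamate transporter SLC17A6 averaged 92.9 ± 14.5 against 66.1 ± 9.27 CPM (0.48 ± 0.16). None of the 12 ganglion cell markers left after the gate genes reached the 2-fold call. VSX1 and OTX2 of bipolar cells were at 0 in the members, as were GNGT2, PDE6H and PRDM1 of photoreceptors, SOX2 and SLC1A3 of Muller glia, OLIG2, SOX10 and NKX2-2 of oligodendrocytes and all 8 genes of microglia and blood. Many of these were near 0 in the others too, such as OTX2 (0 UMIs) and VSX1 (5 UMIs), so those zeros tell little. Other genes of these lists had UMIs in the members, such as PRKCA (160), VIM (86) and MBP (179). Oligodendrocyte markers summed to 186 to 211 CPM in the members, against 114 to 125 CPM in the others. Horizontal cell markers summed to 373 to 443 against 260 to 309 CPM. The bipolar, photoreceptor and Muller glia sums overlapped. The third marker of the label, BHLHE22, covered only a portion of the members. It was detected in 98 of the 327 double-positive barcodes (30.0%), against 644 of the 8286 others (7.77%). Amacrine-marker barcodes without a ganglion cell gene held it in 21.4%.

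As a share of ganglion-marker barcodes, double-positive ones made up 4.21% and 3.86% in the dorsal libraries, against 3.45% and 4.04% in the ventral libraries. These values overlapped. The difference of 0.292 percentage points had an exact permutation p of 0.667 (two-sided, n = 2 libraries per region). With every barcode thinned to 1500 UMIs, the shares were 3.03% and 2.36% in dorsal against 1.43% and 2.05% in ventral retina. The dorsal shares then lay above the ventral ones, by 0.951 percentage points on average (two-sided exact permutation p = 0.333, the smallest that 2 against 2 libraries can give). Thinning left out 382 and 490 shallow barcodes of the dorsal libraries and 194 and 188 of the ventral ones. At 2500 UMIs the dorsal shares were 6.96% and 5.38%, and the ventral shares 2.50% and 2.67%, with the same p of 0.333. This depth left out 794 of 955 and 941 of 1357 dorsal barcodes. In the ventral libraries it left out 581 of 3585 and 570 of 3262. The dorsal shares at 2500 UMIs thus rest on the deepest barcodes, with 11 of 158 and 22 of 409 double-positive.

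**Figure D1:**
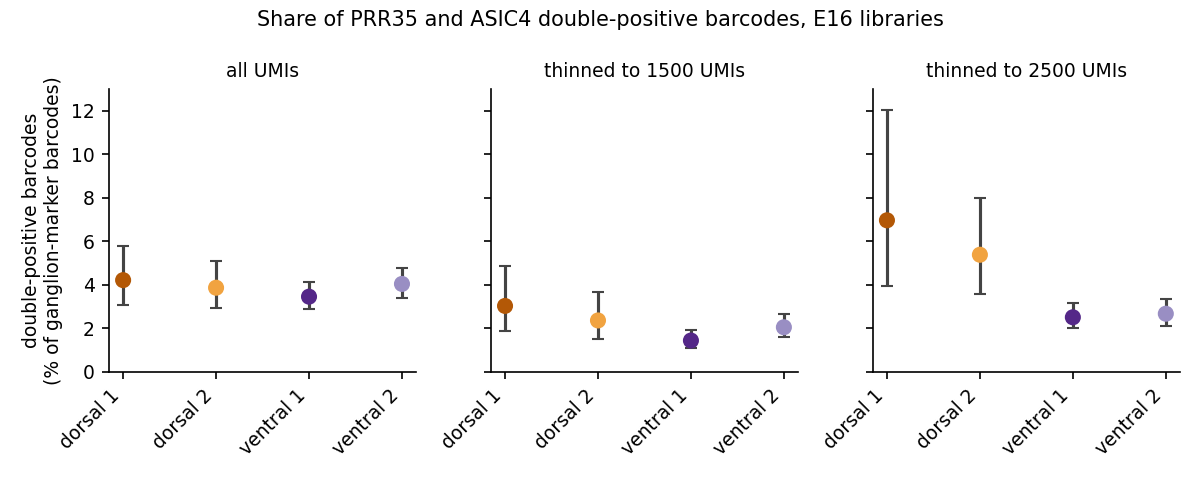
Share of double-positive barcodes among ganglion-marker barcodes (%, vertical axis) in each E16 library, with all UMIs and after thinning to 1500 or 2500 UMIs per barcode. Points are library values and bars are 95% Wilson intervals. With all UMIs the libraries lie between 3.45% and 4.21%. After thinning to 2500 UMIs dorsal libraries reach 6.96% and 5.38%, against 2.50% and 2.67% in ventral libraries. That thinning left out 794 and 941 shallower dorsal barcodes and 581 and 570 ventral ones.

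To find which genes went with the pair, UMIs were summed per library over the 2 sets of barcodes. The quasi-likelihood test of edgeR was run on the sums, with the library as a block and Benjamini-Hochberg adjustment over all 8464 genes tested. A call required an adjusted p under 0.05 and a 2-fold difference. By this rule 165 genes (1.95% of those tested) were higher and 148 (1.75%) lower in double-positive barcodes. The 12 largest rises and 12 largest falls with at least 50 CPM in the higher set and no overlap between the libraries were taken as the named genes, of which 11 rises and 12 falls are described below.

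The largest rise was that of RXRG, the gamma retinoid X receptor. It stood at 250 and 180 CPM in dorsal and 80.5 and 98.7 CPM in ventral double-positive barcodes, against 15.02, 18.9, 12.8 and 10.8 CPM in the other barcodes of the same libraries (log2 difference 3.11 ± 0.20, SE, edgeR adjusted p = 8.2e-35). NEUROD6, a neuronal basic helix-loop-helix factor, averaged 54.3 ± 23.9 CPM in double-positive barcodes and 7.98 ± 0.884 CPM in the others (SD, n = 4). Its log2 difference was 3.05 ± 0.25 (edgeR adjusted p = 5.4e-24). CBLN2, a cerebellin that bridges pre- and postsynaptic proteins, averaged 189 ± 31.3 CPM against 36.2 ± 15.6 CPM (2.77 ± 0.14). In all 4 libraries each of these genes was higher in the double-positive barcodes, as the naming rule required.

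The precursor of a somatostatin-type peptide was the most strongly sequenced of the named genes. SS2, a synonym of SST7 in the RefSeq gene table, held 2610 UMIs in the members. Its level was 922 and 1323 CPM in dorsal and 2107 and 2405 CPM in ventral double-positive barcodes, against 305, 308, 528 and 512 CPM in the others (log2 difference 2.05 ± 0.059, SE, edgeR adjusted p = 4.2e-94). FIBCD1, a membrane protein with a fibrinogen-like domain, averaged 417 ± 70.3 against 88.6 ± 6.30 CPM (2.32 ± 0.091). TRHDE, an ectoenzyme that breaks down thyrotropin-releasing hormone, averaged 302 ± 64.8 against 86.7 ± 7.86 CPM (1.96 ± 0.10).

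A further 5 of the 12 rises rested on 84 to 161 UMIs in the members. They were the voltage-gated potassium channel KCNC4 (2.41 ± 0.18), the collagen COL12A1 (2.36 ± 0.16), the calcium- and calmodulin-dependent phosphodiesterase PDE1C (2.22 ± 0.23), the glycosyltransferase B3GNT9 (2.02 ± 0.17) and the lipoprotein-receptor relative LRP1B (1.99 ± 0.23, all log2 differences ± SE). BHLHE22, which the selection did not use, was 237 and 158 CPM in dorsal and 102 and 143 CPM in ventral double-positive barcodes. Its level in the others was 35.9, 43.1, 31.2 and 36.2 CPM. The log2 difference was 1.93 ± 0.15 (SE, edgeR adjusted p = 5.3e-26), and the libraries of the sets did not overlap.

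**Figure D2:**
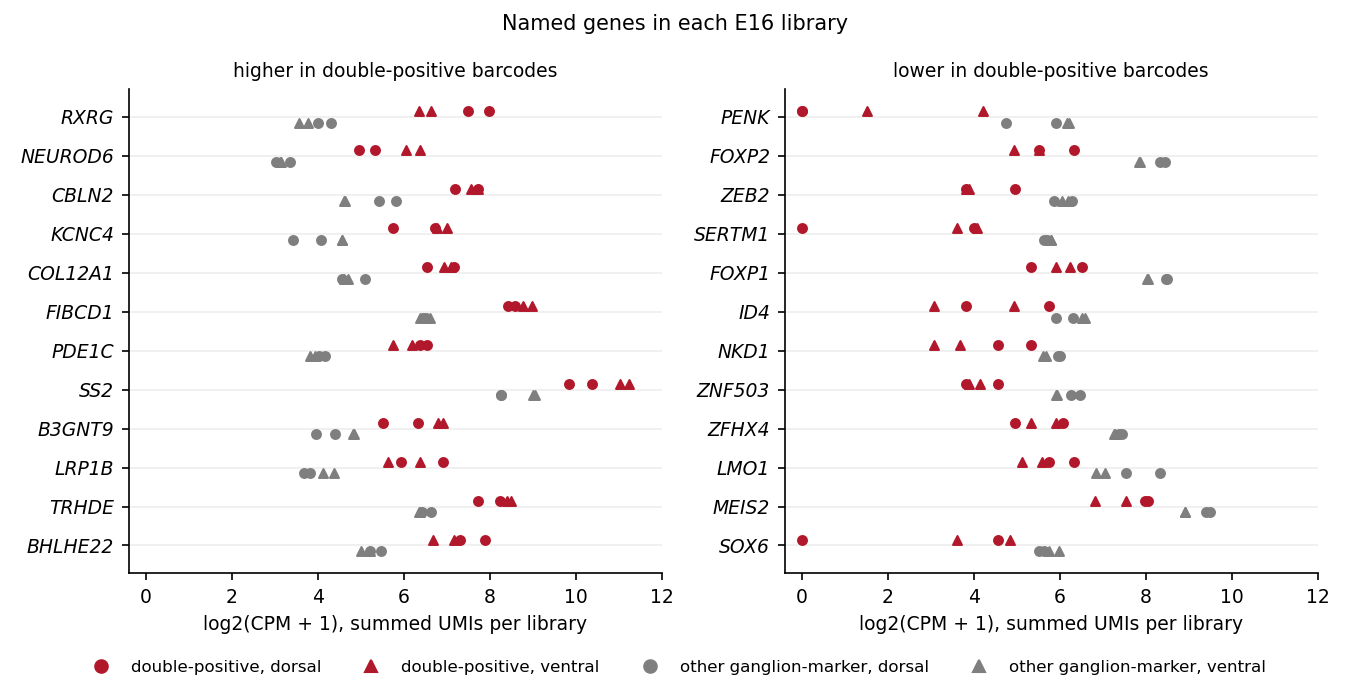
Level of 11 of the 12 genes with the largest rise, of BHLHE22 and of the 12 genes with the largest fall in each E16 library, as log2(CPM + 1) of UMIs summed per library. Red symbols are double-positive and grey symbols other ganglion-marker barcodes, circles dorsal and triangles ventral; for every gene shown the red and grey symbols do not overlap, a condition of the naming rule for all but BHLHE22.

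Several of the falls were in transcription factors. FOXP2, a forkhead factor that marks a family of ganglion cells in the mouse, stood at 79.1 and 45.1 CPM in dorsal and 29.5 and 44.7 CPM in ventral double-positive barcodes, against 349, 321, 228 and 234 CPM in the others (log2 difference -2.62 ± 0.16, SE, edgeR adjusted p = 4.4e-39). Its relative FOXP1 averaged 66.0 ± 21.6 CPM in double-positive barcodes and 310 ± 53.8 CPM in the others (-2.07 ± 0.14). The homeobox gene MEIS2 averaged 202 ± 69.6 against 591 ± 126 CPM (-1.66 ± 0.099). Also lower were ZEB2 (-2.18 ± 0.27), ID4 (-2.05 ± 0.23), ZNF503 (-2.01 ± 0.26), ZFHX4 (-1.74 ± 0.16), the LIM-only protein LMO1 (-1.72 ± 0.17) and SOX6 (-1.62 ± 0.27).

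The largest fall of all was that of PENK, which encodes the enkephalin precursor. It had 10 UMIs in the members and 2131 in the others, or 4.88 ± 8.57 against 57.5 ± 22.0 CPM (log2 difference -3.07 ± 0.32). In the members it stood at 0 CPM in both dorsal libraries and at 17.7 and 1.86 CPM in the ventral ones, and the difference was -5.51 without ventral replicate 1 and -2.36 without ventral replicate 2. Without ventral replicate 2 the difference of ID4 was -1.41, and without ventral replicate 1 that of SOX6 was -2.28. SERTM1 (-2.09 ± 0.29) and the Wnt pathway antagonist NKD1 (-2.01 ± 0.30) had 16 UMIs each in the members. Some amacrine cell markers moved with the falls. Of 8 amacrine markers tested, 4 were lower, among them TFAP2A, TFAP2B and GAD1, and none was higher. In dorsal replicate 1, TFAP2B was higher in the members (65.9 against 47.0 CPM). PAX6, the most abundant amacrine marker, averaged 432 ± 32.6 against 444 ± 14.5 CPM and was not called (-0.10 ± 0.080). The summed level of all 9 was 484 to 661 CPM in double-positive barcodes, against 670 to 816 CPM in the others, and none was at 0. Their part in the falls was not tested.

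Other gene families are given as counts of called members, beside the background of 1.95% higher and 1.75% lower. The lists were chosen with earlier results of these data known, so the counts are a description and no test of the families. Of 62 transcription factors of ganglion cells tested, 12 were higher and 17 lower, with a median log2 difference of -0.31, beside -0.01 over all genes. Beyond those already named, the chromatin organizer SATB1 averaged 730 ± 72.4 against 336 ± 71.7 CPM (1.18 ± 0.074). TFAP2D, an AP-2 factor, averaged 506 ± 42.0 against 165 ± 23.5 CPM (1.72 ± 0.085). ISL2 was lower, at 57.0 ± 26.2 against 188 ± 69.2 CPM (-1.16 ± 0.15). TBR1 and EOMES, T-box factors of other ganglion cell types in the mouse, were lower as well (-1.55 ± 0.34 and -1.16 ± 0.32). Of 15 markers of other E16 ganglion cell groups tested, 3 were higher (RUNX2, RXRG and FSTL1) and 7 lower, with a median of -0.80. Of 18 genes known for dorsal or ventral patterns, 1 was higher and 3 lower.

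Adhesion and axon guidance genes were split, with 9 higher and 10 lower of 79 tested and a median of 0.08. Among the higher ones, the protocadherin PCDH17 averaged 984 ± 143 CPM in double-positive and 333 ± 23.3 CPM in other barcodes (log2 difference 1.49 ± 0.068). CNTNAP5, a contactin-associated protein, averaged 616 ± 108 against 201 ± 4.40 CPM (1.59 ± 0.079). Among the lower ones were the recognition molecules DSCAM (-1.18 ± 0.20), SDK1 (-1.34 ± 0.28) and SDK2 (-1.32 ± 0.30), and the Eph receptor EPHB1 (-1.55 ± 0.26). Their levels in the members were between 14.7 and 31.3 CPM.

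Of 9 neuropeptide genes tested, 1 was higher and 5 lower. The higher one was CCK, the cholecystokinin precursor, at 356 and 413 CPM in dorsal and 173 and 114 CPM in ventral double-positive barcodes, against 112, 114, 42.1 and 48.7 CPM in the others (log2 difference 1.68 ± 0.13). The lower ones besides PENK were NPPC (-2.75 ± 0.29), UTS2B (-1.55 ± 0.31), NMB (-1.34 ± 0.13) and SST (-1.15 ± 0.23). SS2 was not on that list. SST and SS2, both somatostatin-type precursors, thus lay on opposite sides.

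Channels and receptors were mostly below the call. Of 29 potassium channel genes tested, 2 were higher (KCNC4 and KCNIP4) and 2 lower (KCNB2 and KCNS1). Of 39 transmitter receptor genes, 3 were higher and none lower. These were the kainate receptor subunit GRIK3, at 519 ± 35.6 against 218 ± 33.7 CPM (1.35 ± 0.082), the GABA-A receptor subunit GABRA2 (1.05 ± 0.10) and the NMDA receptor subunit GRIN3A (1.13 ± 0.30). No call fell on the 2 tested genes of ASIC4's own list of acid-sensing and epithelial sodium channels. Calcium-binding proteins had 1 higher (CABP7) and 1 lower (NRGN) of 21 tested, and voltage-gated sodium and calcium channels 1 higher (HCN4) and 1 lower (CACNA1H) of 22. Stress and activity genes had 2 lower of 18, ATF3 (-2.54 ± 0.37) and PHGDH (-1.43 ± 0.21). The myelin gene CNP, from the oligodendrocyte list, was higher, at 26.9 ± 5.35 against 5.72 ± 2.29 CPM (2.41 ± 0.38), and MBP of that list was not called. ONECUT1 of the horizontal cell list was also higher (1.31 ± 0.18). LHX1 of that list was at 0 in the members and had 3 UMIs in the others.

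Barcodes with 1 of the 2 genes were measured as well. Against barcodes with neither, FIBCD1 averaged 417 ± 70.3 CPM in double-positive, 407 ± 136 CPM in PRR35-only, 113 ± 56.1 CPM in ASIC4-only and 55.1 ± 7.90 CPM in double-negative barcodes (SD, n = 4). For RXRG the values were 153 ± 78.4, 53.1 ± 36.3, 40.9 ± 36.2 and 9.01 ± 1.41 CPM in the same order. Of the 12 named higher genes, 11 had a mean between the double-positive and double-negative ones in PRR35-only barcodes, the exception being TRHDE, and 11 in ASIC4-only barcodes, the exception being LRP1B. These genes were named for being above the other barcodes, which include both single-positive sets. The higher mean in double-positive barcodes was therefore partly built in. PRR35-only barcodes were above ASIC4-only ones in 11 of the 12, all but B3GNT9. Of the named falls, ID4 averaged 116 ± 39.2 CPM in ASIC4-only and 83.02 ± 18.7 CPM in double-negative barcodes, and ZEB2 (73.5 and 70.0 CPM), ZNF503 (77.0 and 72.8 CPM) and SOX6 (63.1 and 54.1 CPM) had the higher mean in ASIC4-only barcodes too. BHLHE22 averaged 160 ± 56.5, 60.5 ± 38.0, 31.1 ± 15.9 and 35.5 ± 4.49 CPM in the 4 sets, so its ASIC4-only mean was not between the outer ones either.

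Likeness of detection was computed from the same barcodes, so its overlap with the genes above is no separate evidence. By the ratio of the share of barcodes with a UMI in the 327 double-positive to that in the 6894 double-negative barcodes, the 10 most alike genes found in at least 20% of the members began with NEUROD6 (21.1% against 1.63%) and CBLN2 (39.8% against 4.25%). KCNC4 followed (31.2% against 5.76%), then FIBCD1 (62.4% against 12.6%), PTPRM, COL12A1, B3GNT9, TRHDE, FSTL1 and RGS8. The median depth was 3656 UMIs in the members. With barcodes thinned to 1500 UMIs, FIBCD1 was found in 37.3% of double-positive barcodes, against 6.30% of double-negative ones, and NEUROD6 in 9.33% against 0.762%. These shares describe the barcodes and carry no test.

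The members were not of 1 kind. All E16 ganglion-marker barcodes were clustered with PRR35, ASIC4, RBPMS2, NEFM and NEFL left out, and the members fell into 19 of 29 clusters. Cluster 17 held 144 of them (44.0%) and cluster 10 held 95 (29.1%), and together these clusters held 239 (73.1%). Members made up 62.9% of the 229 barcodes of cluster 17 and 24.8% of the 383 barcodes of cluster 10. With coarser or finer clusters the top 2 held 74.6% and 72.5% of the members. The top coarser cluster had 646 barcodes, of which only 22.9% were members, and the top finer one had 229, of which 62.9% were. Cluster 17, taken because it held the most members, was led by ASIC4 and PRR35, by fold over the remaining barcodes. Since members carry both genes by the rule, that lead is no separate evidence. BHLHE22, LMO7 and CCK came next. Cluster 10 was led by RUNX2, COL12A1, RXRG, ITGB3 and SEMA3C. A further 28 members lay in cluster 18, led by NTN4L and IKZF1, 16 in cluster 5 and 10 in cluster 23. Members made up 5.99% of the 167 barcodes of cluster 23, which was led by PRR35 and TFAP2D. Over all its barcodes PRR35 stood at 949 CPM, beside 942 CPM in cluster 17, and TFAP2D at 1414 CPM. TRHDE (587 CPM) and FSTL1 (449 CPM) were among its leading genes too, so high levels of these genes were not particular to the members.

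BHLHE22 separated the members of the 2 clusters. It stood at 422 and 310 CPM in dorsal and 260 and 343 CPM in ventral members of cluster 17, and at 48.2, 0, 5.52 and 5.64 CPM in members of cluster 10, where it had 3 UMIs in all. RXRG had the opposite pattern, with 24.8, 0, 5.53 and 10.2 CPM in members of cluster 17, and 867, 561, 221 and 271 CPM in members of cluster 10. Cluster 10 held only 6 and 12 dorsal members, beside 39 and 38 ventral ones, so its dorsal values rest on few barcodes. COL12A1 averaged 9.27 ± 10.8 and 358 ± 47.8 CPM in the members of clusters 17 and 10, and PDE1C 2.77 ± 5.54 and 209 ± 72.5 CPM (SD, n = 4). The LIM-homeobox factor ISL1 averaged 591 ± 98.1 and 29.8 ± 20.6 CPM, and EBF1 1308 ± 95.7 and 375 ± 36.1 CPM. POU4F1 averaged 2050 ± 123 and 968 ± 171 CPM. Because these genes took part in the clustering, their differences between the clusters are a description with no test.

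Several named genes were shared by both clusters. FIBCD1 averaged 500 ± 139 CPM in members of cluster 17 and 437 ± 169.5 CPM in members of cluster 10. TRHDE averaged 359 ± 126 and 294 ± 45.3 CPM, and NEUROD6 53.7 ± 39.5 and 68.8 ± 38.5 CPM. The ranges over libraries overlapped for each of the 3. These levels were not limited to the members. In the 85 other barcodes of cluster 17 and the 288 of cluster 10, summed over libraries, FIBCD1 stood at 608 and 641 CPM (566 and 495 CPM in the members summed likewise). BHLHE22 stood at 347 CPM in the others of cluster 17, against 314 CPM in its members, and SS2 at 3044 CPM in the others of cluster 10, against 2492 CPM. PRR35 itself averaged 1222 ± 270 and 566 ± 26.9 CPM, and ASIC4 914 ± 251 and 430 ± 32.6 CPM, with no overlap between the libraries of the 2 clusters in PRR35 or ASIC4. The sum over all members thus averages barcodes with high BHLHE22 and barcodes with high RXRG.

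**Figure D3:**
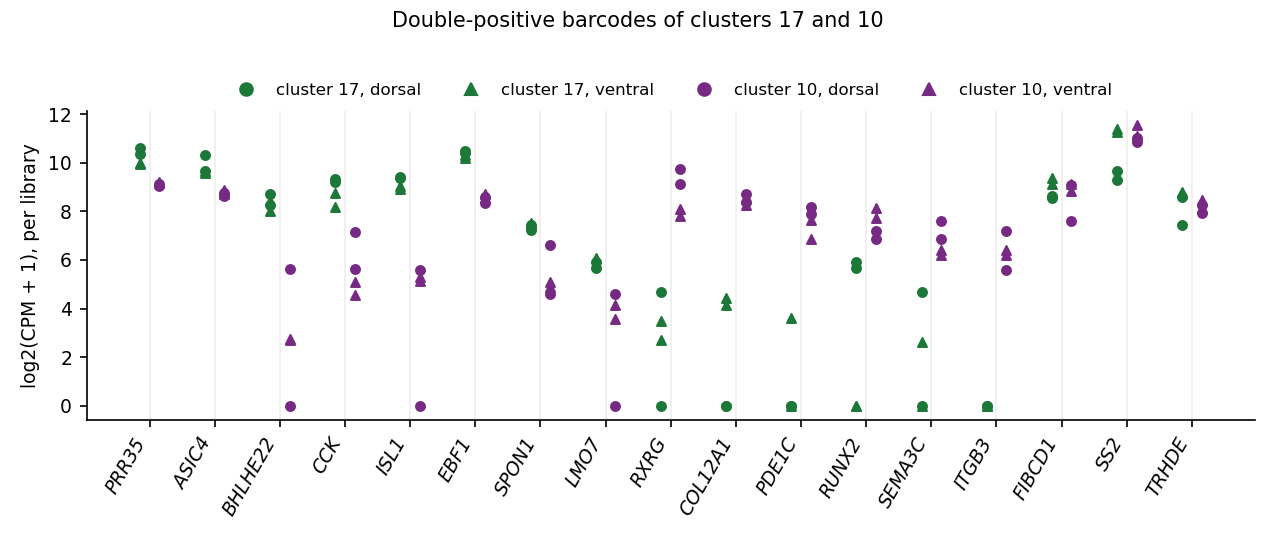
Level per library, as log2(CPM + 1), of 17 genes in the double-positive barcodes of cluster 17 (green) and cluster 10 (purple); circles are dorsal and triangles ventral libraries. BHLHE22, CCK and ISL1 are high in cluster 17, RXRG, COL12A1, PDE1C and ITGB3 in cluster 10, and FIBCD1 and TRHDE lie in the same range in both.

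Joint detection of these genes was also counted per barcode, and since they lead the clusters the counts restate them. BHLHE22 without RUNX2 or RXRG was detected in 92 members and RUNX2 or RXRG without BHLHE22 in 80. Both were detected in 6 members (1.84%), where the product of the separate shares gives 7.88%, and neither in 149. The share with BHLHE22 was 30.6% and 27.1% in dorsal and 26.3% and 34.4% in ventral members. The share with RUNX2 or RXRG was 25.0% and 29.2% in dorsal and 28.0% and 24.0% in ventral members. These detection shares were taken at unlike depth, with member medians of 1802 and 2748 UMIs in dorsal and 4270 and 4254 UMIs in ventral libraries. By cluster the mix differed. Cluster 17 held 63.9% and 56.25% of dorsal members, against 36.4% and 40.8% of ventral members. Cluster 10 held 16.7% and 25.0% of dorsal members, against 33.05% and 30.4% of ventral members. RUNX2, a Runt-domain factor, averaged 78.5 ± 16.2 CPM in all members and 24.1 ± 6.28 CPM in the other barcodes (log2 difference 1.92 ± 0.20), so that 86 members also carried a defining gene of the RUNX2 and RXRG ganglion cells of this stage.

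Dorsal and ventral members were compared with each other in a fit of their own, on 84 dorsal and 243 ventral barcodes summed into 4 libraries. Of 5333 genes tested with edgeR, 64 (1.2%) passed an adjusted p of 0.05, with 31 higher and 33 lower in dorsal members. The count was 16 without dorsal replicate 2 and 10 with the replicate block. FSTL4, a secreted follistatin-like protein, stood at 488 and 481 CPM in dorsal members, against 68.7 and 80.1 CPM in ventral members (log2 difference 2.67 ± 0.23, edgeR adjusted p = 6.6e-13). CCK stood at 356 and 413 CPM in dorsal members, against 173 and 114 CPM in ventral members (1.44 ± 0.23), and SS2 at 922 and 1323 against 2107 and 2405 CPM (-0.97 ± 0.11). Both FSTL4 and CCK separated the regions, which the naming rule required of FSTL4, and SS2 did so in the other direction.

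Other genes called higher in dorsal members included NR2F2, ADGRL2 and GABRG1, which lost the call in 6 of 8, 3 of 10 and 5 of 9 alternatives. ADGRL2, an adhesion receptor of the latrophilin family, stood at 145 and 233 CPM in dorsal members and at 39.3 and 57.7 CPM in ventral members (2.01 ± 0.32). NR2F2, a nuclear receptor that is dorsal or ventral in different vertebrate retinas, had 14 dorsal and 12 ventral UMIs (2.50 ± 0.68, and 1.66 to 3.45 over the alternatives). TBX2, a T-box factor of the dorsal retina, stood at 105 and 165 CPM in dorsal members, against 60.9 and 55.9 CPM in ventral members (1.27 ± 0.34). Genes called lower in dorsal members included UNC5C, CITED4, DACH1, MDGA1 and PCP4, which lost the call in 4 of 7, 5 of 8, 4 of 8, 7 of 9 and 4 of 10 alternatives. The netrin receptor UNC5C had 0 and 7.52 CPM in dorsal members, against 76.6 and 57.7 CPM in ventral members, where 1 dorsal UMI and 70 ventral UMIs were counted. DACH1 and CITED4 likewise rested on 3 and 2 dorsal UMIs, and no fold is read for these 3 genes. Without dorsal replicate 2 the log2 difference of MDGA1 was -2.87, against -1.98 in all libraries, and without ventral replicate 2 that of PCP4 was -1.11, against -1.85.

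The same regional contrast was measured outside the members. In the other ganglion-marker barcodes FSTL4 stood at 372 and 357 CPM in dorsal libraries, against 69.9 and 68.3 CPM in ventral libraries. A test of whether the dorsal-ventral difference itself differed between the 2 sets called 3 of 9181 genes (0.0327%), and FSTL4, CCK, SS2 and TBX2 were not among them (interaction log2 values of 0.22 ± 0.23, 0.06 ± 0.23, -0.27 ± 0.12 and 0.12 ± 0.34). Among the called genes were CBLN2 (-1.29 ± 0.29) and NREP (0.55 ± 0.12), each with an edgeR adjusted p of 0.034. CBLN2 lost the call in all 8 alternatives and NREP in 6 of 8. None of the 3 was called by DESeq2, which gave 0 genes and 153 at an unadjusted p under 0.05.

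Within clusters FSTL4 kept its regional split. It stood at 422 and 428 CPM in dorsal and 105 and 128 CPM in ventral members of cluster 17, and at 722 and 655 CPM in dorsal and 11.04 and 11.3 CPM in ventral members of cluster 10. The dorsal values of cluster 10 came from 6 and 12 barcodes, and FSTL4 had 47 UMIs in all its members. CCK stood at 645 and 590 CPM in dorsal and 432 and 287 CPM in ventral members of cluster 17. SS2 stood at 620 and 797 CPM in dorsal and 2446 and 2696 CPM in ventral members of cluster 17. In cluster 10 the gap of SS2 was small, with 2070 and 1847 CPM in dorsal and 2225 and 2970 CPM in ventral members. PCP4 overlapped between the regions in cluster 10, at 0 and 117 CPM in dorsal and 138 and 50.7 CPM in ventral members. Depth, sex and the mix of clusters among the members moved with region. The share of members with at least 3 UMIs of HINTW, a gene of the female W chromosome, was 75.0% and 61.8% in dorsal and 44.4% and 40.2% in ventral libraries, among barcodes of at least 2000 UMIs. The count of 64 was 7 when only barcodes with 3 or more HINTW UMIs were summed and 33 after thinning to 1500 UMIs. The part of depth, sex and cluster mix in single genes was not tested. FSTL4 was called under all 11 alternatives.

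**Figure D4:**
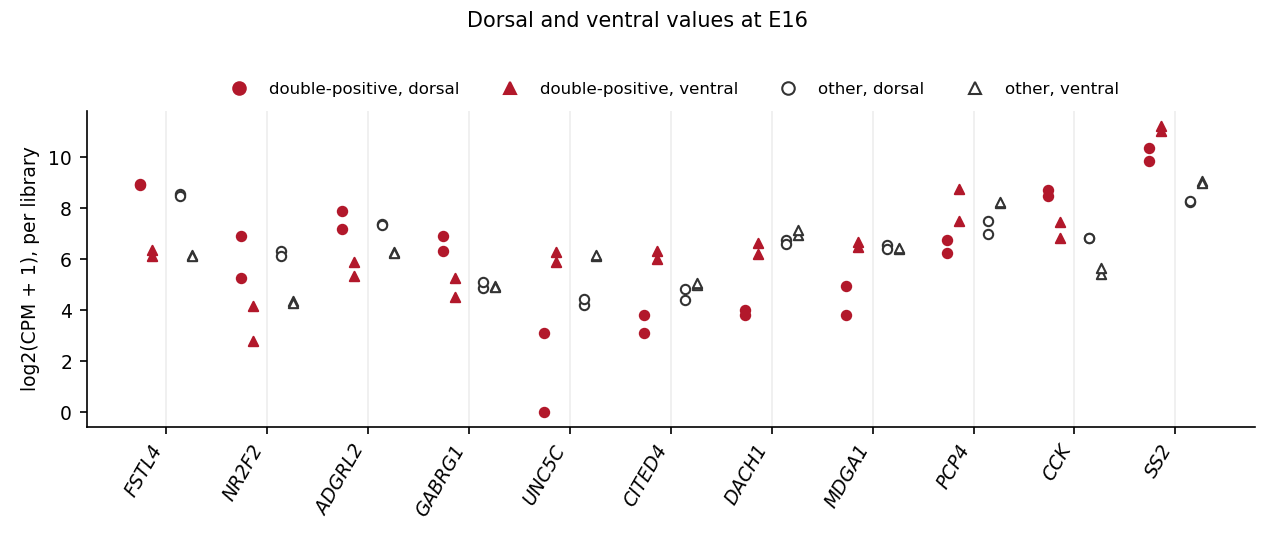
Level per E16 library, as log2(CPM + 1), of 9 of the 10 genes named between dorsal and ventral members and of CCK and SS2. Filled red symbols are double-positive and open symbols other ganglion-marker barcodes, circles dorsal and triangles ventral; FSTL4 and CCK are higher in dorsal libraries of both sets.

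The same rule was applied to the whole-retina libraries of the other stages, which took no part in the choice of the E16 genes. It found 100 of 5143 ganglion-marker barcodes at E18 and 292 of 13380 at E12. Per library the share was 2.18% ± 0.131 at E12, 3.89% ± 0.325 at E16 and 1.96% ± 0.539 at E18 (SD, n = 4 libraries). Only the E16 libraries had been enriched for ganglion cells, so these shares have different denominators and no order is read from them.

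At E12, 92 genes (0.852% of 10803 tested) were higher and 99 (0.916%) lower in double-positive than in other ganglion-marker barcodes. The members were deeper, with median UMIs of 2479 to 2863 per library against 2036 to 2185 in the others. Against others matched in depth 66 genes were higher and 64 lower. Of the 12 named rises of E16, 9 were called in the same direction and all 12 had the same sign. SS2 was the most different, at 2980 ± 276 CPM in double-positive and 334 ± 23.7 CPM in other E12 barcodes (log2 difference 3.15 ± 0.050, edgeR adjusted p = 3.2e-84). CBLN2 (2.56 ± 0.14), TRHDE (2.08 ± 0.14) and RXRG (1.82 ± 0.24) were called as well, whereas COL12A1 (1.24 ± 0.47), FIBCD1 (0.75 ± 0.18) and LRP1B (0.94 ± 0.58) were not. Of the 12 named falls 6 were called, among them FOXP1 (-1.64 ± 0.18) and FOXP2 (-1.29 ± 0.20). The sign was the same as at E16 in 11 of the 12 falls. PENK, the largest fall of E16, was the exception (0.03 ± 0.35, 24.1 against 24.2 CPM). BHLHE22 had a log2 difference of 0.00 ± 0.12, at 221 CPM in double-positive and 222 CPM in other barcodes. Amacrine markers summed to 1985 to 3027 CPM in the E12 members, against 3158 to 3571 CPM in the others, with none of the 9 at 0. Bipolar cell markers summed to 502 to 643 against 853 to 896 CPM, and photoreceptor markers to 31.7 to 39.9 against 70.0 to 77.9 CPM, with GNGT2 and PDE6H at 0 in the members. The part of these markers in the E12 values was not tested.

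At E18, 115 genes (1.11% of 10407 tested) were higher and 314 (3.02%) lower. The members were deeper, with median UMIs of 3193 to 4103 per library against 2549 to 2664 in the others, and against others matched in depth 85 genes were higher and 125 lower. Of the 12 named rises 8 were called, among them B3GNT9 (3.54 ± 0.46), TRHDE (1.86 ± 0.17) and COL12A1 (1.88 ± 0.43). RXRG (-0.07 ± 0.26), PDE1C (0.50 ± 0.29) and SS2 (0.31 ± 0.095) were among the 4 that were not. Of the 12 named falls 6 were called, and BHLHE22 was not (-0.19 ± 0.23). Only 8 of the 12 falls had the same sign as at E16. The exceptions were FOXP2 (0.20 ± 0.29), ZEB2 (0.13 ± 0.16), ID4 (0.39 ± 0.16) and SOX6 (0.79 ± 0.38). Over all called genes of E16, 34 of the 153 higher ones tested at E18 were higher there (22.2%) and 43 of the 155 tested at E12 (27.7%). For the lower ones the counts were 42 of 143 (29.4%) and 28 of 147 (19.0%). At E18, 5 of the E16 rises were called in the opposite direction, namely EZR, GCG, ONECUT1, GNG13 and ENHO.

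**Figure D5:**
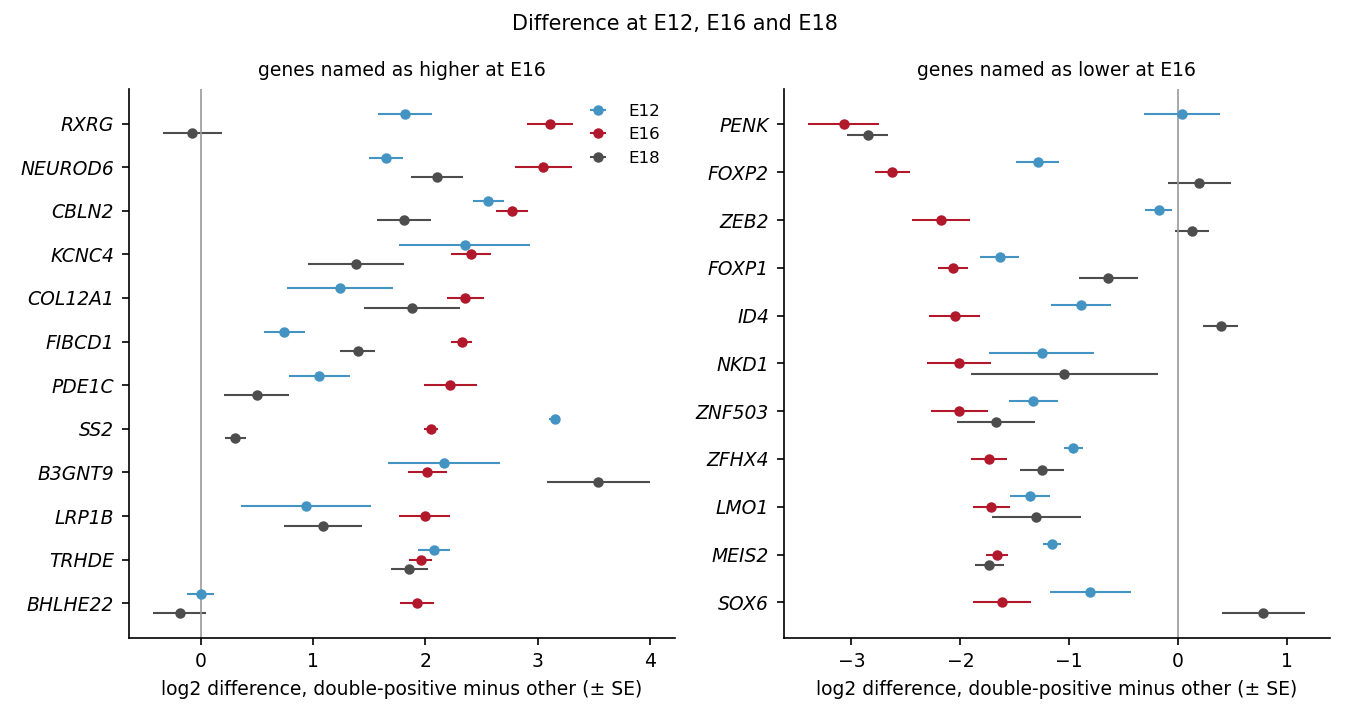
Log2 difference between double-positive and other ganglion-marker barcodes (± SE, horizontal axis) at E12, E16 and E18, for BHLHE22 and the genes described at E16 except SERTM1, which had 0 UMIs in the E18 members. TRHDE and CBLN2 lie to the right of 0 at every stage, while BHLHE22 does so at E16 with values of 0.00 and -0.19 at E12 and E18.

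Markers of amacrine cells were frequent among the E18 members. Of the 100 members there, 30 held RBPMS2 and 70 held NEFM or NEFL without it. TFAP2B, an AP-2 factor of amacrine cells, was found in 87.1% of those 70, and the vesicular inhibitory amino acid transporter SLC32A1 in 75.7%. Of the 30 with RBPMS2, 26.7% held TFAP2B and 6.67% held SLC32A1, while POU4F1 was found in 80.0%, against 4.29% of the 70. Over all E18 members the 9 amacrine markers summed to 4707 to 5753 CPM, against 4733 to 5160 CPM in the others, and none was at 0. Photoreceptor markers summed to 34.7 to 1168 CPM in the members, against 1353 to 1511 CPM, and Muller glia markers to 219 to 1785 CPM, against 2026 to 2645 CPM. Bipolar cell markers summed to 196 to 496 against 804 to 979 CPM, and horizontal cell markers to 338 to 381 against 648 to 738 CPM. The horizontal cell gene ONECUT3 was at 0 in the members, and no marker of the other 3 types was. Their part in the E18 calls was not tested.

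With RBPMS2 as the only gate gene, 30 members were left at E18, 7 or 8 per library, and NEUROD6 had 11 UMIs in them. All 12 named rises were called there, where 1.15% of 6970 genes were called higher and 2.44% lower. RXRG then differed by 2.07 ± 0.36, SS2 by 1.64 ± 0.13 and PDE1C by 1.87 ± 0.50 (log2, SE), and 9 of the 12 named falls were called. BHLHE22 had a log2 difference of 1.26 ± 0.45 and missed the call (edgeR adjusted p = 0.081). At E12 the same gate left 42 to 50 members per library. There 10 of the 12 rises and 7 of the 12 falls were called, where 0.663% of 9803 genes were called higher and 0.653% lower. All 24 genes then had the same sign as at E16 at both stages. RXRG differed by 2.69 ± 0.32 at E12, and BHLHE22 by 0.62 ± 0.15, under the 2-fold minimum.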

How the data were processed

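The authors deposited raw UMI counts per gene and barcode for each stage, made with Cell Ranger 2.1.0 on the chicken genome GRCg6a, per the submitters' processing notes. The annotation and the rule for calling cells are not given in the sources used here. The members and gene lists were chosen with earlier results of these data known. Library totals ranged from 1737033 to 27655687 UMIs, and counts of low genes limit the precision most in the 2 dorsal libraries.

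UMIs were summed per library over double-positive and over other ganglion-marker barcodes, filtered with filterByExpr, scaled by TMM and compared by the quasi-likelihood test of edgeR 4.0.16 (in R 4.3.3 with limma 3.58.1), using Benjamini-Hochberg adjustment over all genes tested. Library was a block, except between regions. Calls needed an adjusted p under 0.05 and, between the sets of barcodes, a 2-fold difference. PRR35, ASIC4, RBPMS2, NEFM and NEFL were described and not tested. Each fit was run on simulated counts with the same spread for all genes and no library effect. Only the median fold estimate had to meet a limit there, so this is no check on false calls in the real data. The named genes were the 12 largest rises and falls (5 between regions) among the calls, given a gene symbol, a mean of 50 CPM or more in the higher set and no overlap between libraries, plus BHLHE22 and called or abundant genes of each list. Values of a few genes are not reported here, though counts of genes include them. TBX2, CCK and SS2 were added to the regional comparison after their values were seen. Doublets were scored by 15 nearest neighbours in 30 principal components. Leiden clusters used 2000 variable genes, 40 components, 20 neighbours and a resolution of 1 (Python 3.11.15, scikit-learn 1.9.0, leidenalg 0.10.2). Barcodes were thinned to 1500 or 2500 UMIs, with intervals at 95%. Alternatives were DESeq2 1.42.0, library totals, no filter, no or added block, other gates, depth-matched comparison barcodes and each library left out. An annotated genome of the build of the files was not used here, so no sequence or coordinate is given.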

Additional observations from a re-analysis of the deposited data

Results flagged for a closer look

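In the E12 and E18 libraries, 2 of the named genes had 1 library far above the other 3 among double-positive barcodes, by Dixon's test at the 95% level, which chance passes in about 1 in 20 groups of 4. NKD1 stood at 24.5 CPM in 1 E18 library, which held all 3 of its UMIs, and at 0 in the other 3. FOXP2 stood at 99.6 CPM in 1 E12 library, against 42.1 CPM in the next highest.

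The dorsal-ventral differences of CBLN2 and NREP differed between double-positive and other ganglion-marker barcodes at E16, by the interaction test of edgeR. For CBLN2 the log2 difference between the regional differences was -1.29 ± 0.29 (SE), with 145 and 210 CPM in dorsal and 189 and 212 CPM in ventral members, against 41.8, 55.8, 23.8 and 23.5 CPM in the others. For NREP it was 0.55 ± 0.12, with 1397 and 1210 CPM in dorsal and 944 and 779 CPM in ventral members, against 560 to 618 CPM in the others. Neither is a stable call: CBLN2 was called in 0 of 8 alternatives, with values of -1.47 to -1.20, and NREP in 2 of 8, with values of 0.38 to 0.75.

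Outside the ganglion cell gate, 141 of 24879 E18 barcodes (0.567%, Wilson interval 0.481% to 0.668%) held both PRR35 and ASIC4. Most of them, 130, lay among the 6539 amacrine-marker barcodes without a ganglion cell gene (1.99%, 1.68% to 2.36%, median 2612 UMIs). That share was close to the 1.94% of E18 ganglion-marker barcodes (1.60% to 2.36%, median 2636 UMIs). TFAP2B was found in 92.9% of the 141 barcodes and SLC32A1 in 75.2%, and no UMI of POU4F1 or TFAP2D was counted.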

How the results depend on the processing

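The calls of the 25 genes named between double-positive and other barcodes at E16 kept their direction and side of the threshold in all 325 alternative values. The count of 313 genes there moved to between 223 and 429, within 1.5 times, and the median log2 difference of all genes was -0.27 with no filter on low counts. There DESeq2 gave 140 higher and 83 lower. The 64 genes between dorsal and ventral members were not stable. The count was 10 with the replicate block, 12 with DESeq2 (which adjusted over 780 genes), 39 without doublets, 33 after thinning to 1500 UMIs, 7 in HINTW-positive barcodes only (an alternative added after seeing the data), and 16 to 40 with 1 library left out (40 and 16 without dorsal replicates 1 and 2, 38 and 30 without ventral replicates 1 and 2). The 3 interaction genes were 0 with no replicate block and 0 with DESeq2, and 0 to 2 with 1 library left out, where the lone library of a region is assumed to vary like the others. Equal replicate numbers did not pair the regions (correlation of deviations 0.0078 in members and 0.011 in others). Of the genes named between regions 1 of 10 kept its call throughout, and 0 of 3 interaction genes; losses were in significance and not in direction, and the cause was not tested. The E18 count of 429 was 215 with DESeq2 (95 higher, 120 lower), 210 with depth-matched others (85 higher, 125 lower) and 250 with RBPMS2 only. The E12 count of 191 was 113 with DESeq2 (76 higher, 37 lower) and 130 with depth-matched others (66 higher, 64 lower). It was 121 to 157 with 1 library left out, lowest without replicate 2. The dorsal-minus-ventral share of 0.951 percentage points was 0.292 without thinning, 3.59 at 2500 UMIs, 0.313 without doublets or thinning, and 0.618 to 1.29 with 1 library left out. Low UMI numbers limit the dorsal members most: no fold is read from genes with 3 or fewer dorsal UMIs.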

Other observations

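The E18 double-positive barcodes outside the gate were also counted for genes that went with the pair at E16. NEUROD6 was found in 29.1%, FIBCD1 in 34.8% and TRHDE in 51.8% of the 141 barcodes, beside 28.0%, 47.0% and 57.0% of the 100 E18 barcodes inside the gate. BHLHE22 was found in 13.5% of them, RXRG in 4.97% and RUNX2 in 0.709%. The muscarinic receptor gene CHRM2 was found in 17.02%, the growth hormone-releasing hormone precursor GHRH in 7.09% and the serotonin-synthesis gene TPH1 in 4.97%.

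Joint detection of BHLHE22 with RUNX2 or RXRG was also counted outside the E16 members. Of the 292 E12 members 82 held BHLHE22 alone, 37 RUNX2 or RXRG alone and 11 both (3.77%, beside a product of 5.24%). Of the 100 E18 members the counts were 18, 15 and 2 (2.00%, beside 3.40%). In the 8286 other ganglion-marker barcodes of E16 both were found in 36 (0.434%, beside 0.6003%). Differences between these sets were not tested.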
